A study of Homo sapiens with 24 samples.

Results

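The longest protein-coding genes of A549 cells were followed through 2 treatments and 3 RNA fractions. They were chosen as protein-coding genes whose annotated span in GENCODE 29 (end minus start, which holds exons and introns) was at least 200000 bp and whose abundance, summed over transcripts, had a mean of 1 TPM or more in the experiment's 12 libraries. TPM is transcript abundance corrected for length and scaled to the same total in every library. The rule used no difference between groups. It found 909 of the 13106 genes tested in the whole-cell experiment and 971 of 13751 in the fractionation experiment, out of 35579 genes listed. The table lists 1481 protein-coding genes of that span at any level. The nearest genes inside the limit in whole cells were AC087632.1 at 200260 bp, LRRC49 at 200418 bp and RFTN1 at 200452 bp, and the nearest outside were LRCH1 at 199872 bp, AMPD3 at 199266 bp and KHDRBS3 at 199265 bp. Genes of 20000 to 50000 bp, 3425 in whole cells and 3512 in the fractions, served as the background class.

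A549 is an established line of human lung adenocarcinoma cells, given as wild type, and polyadenylated RNA was sequenced as paired reads of 150 bp. The whole-cell experiment had 4 groups of 3 libraries, 1 from each of batches A, B and C: a control siRNA, a pool of siRNAs against TAOK2 (30 nM, by reverse transfection), the solvent DMSO, and compound 2. Every whole-cell title also holds the word mock. The labels call compound 2 an inhibitor of the TAOK2 kinase and state neither its dose nor its time. The fractionation experiment had 6 groups of 2 libraries, 1 from each of batches 1 and 2: the control siRNA and the TAOK2 siRNA pool, each as total, nuclear and cytoplasmic RNA. Values are listed below in batch order. TAOK2 knockdown and the comparison of control siRNA with DMSO share the control siRNA libraries, and compound 2 and that comparison share the DMSO libraries.

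A long gene takes RNA polymerase II a long time to transcribe, because introns make up nearly all of its span. Its introns hold many sequences that can act as cleavage and polyadenylation sites, and the U1 snRNP, the kinase CDK12 and other factors are known to keep the polymerase from ending there. When transcription ends early inside a long gene, a short polyadenylated RNA can result. Long genes are also known for the common fragile sites that several of them hold.

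The labels and libraries were checked first. TAOK2 itself, which is no long gene, ranged from 8.56 to 12.5 TPM after TAOK2 siRNA, against 34.3 to 40.3 in its controls, and from 20.5 to 30.7 TPM after compound 2, against 37.5 to 40.6 in DMSO. Of the lung epithelial markers 8 of 11 were measured, with sums of 6380 to 9523 TPM over the whole-cell libraries. Of 6 leukocyte markers 2 were measured (summed 14.4 to 31.0 TPM, with 1 listed at 0), and of 9 fibroblast and endothelial markers 1 was (5.47 to 29.6 TPM). In the fractionation libraries 7 lung epithelial markers were measured (2774 to 5707 TPM) and 3 leukocyte markers (22.9 to 111 TPM). Of the fibroblast and endothelial markers 2 were (1.79 to 12.9 TPM). The median gene lay at 3.82 to 3.9995 on the log2(TPM + 1) scale with compound 2 and at 4.36 to 4.45 in the other 9 whole-cell libraries. A shift in TPM under compound 2 thus depends on the scaling. TPM keeps no read total, and the depth of each library is unknown beyond the labels' minimum number of reads. Nothing in the labels says that the libraries of a group came from cells thawed or grown apart, so p-values measure the spread between these libraries. In bulk RNA, more cells with an RNA and more of it per cell cannot be told apart.

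The long genes had a median span of 294043 bp in whole cells, 242 of them spanned over 400000 bp and 20 over 1000000 bp. Their median abundance was 13.4 TPM, against 22.1 TPM in the background class, and 678 averaged at least 5 TPM. They had a median of 12 listed transcripts, 5 of these under 1000 nt, against 8 and 4 in the background class. The most abundant transcript had a median of 13 exons and 3920 nt, against 8 exons and 2613 nt. A span in an annotation is not the distance that is transcribed: the most abundant transcript itself reached across at least 200000 bp of the genome in 579 of the 909 genes (63.7%), and across under 50000 bp in 102. RefSeq, matched by symbol for 897, gave 815 of them a span of at least 200000 bp and 17 a span under 50000 bp. Chromosomes 2, 3 and 1 held the most, with 81, 77 and 74.

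The 300 bases around the RefSeq start sites (GRCh38.p14) were searched for a GC box (GGGCGG or its complement CCGCCC) and for TATAAA on either strand. Of 1558 promoters of 763 long genes, 51.7% held the GC box and 9.18% TATAAA, and the median promoter had 19 CpG and 61.7% G and C. In the background class, 3870 promoters of 2752 genes held them in 68.7% and 4.599%, with 26 CpG and 65% G and C. Over all 35116 promoters the shares were 45.0% and 11.5%, with 14 CpG and 58.7% G and C. A match is a description of letters, not a binding site.

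The results turn on short transcripts inside long genes, so the sequences of a few are shown first. The genes PTPRK (a receptor tyrosine phosphatase), RALGAPA1 (the catalytic subunit of a complex that switches off Ral GTPases) and PRKCA (protein kinase C alpha) each have a listed short transcript that starts near the promoter and ends within the first 8% of the gene. Their RefSeq promoters are printed 5′ to 3′, 250 bases before to 50 after the start, with GC boxes in capitals: chr6:128520550-128520849 on the minus strand, chr14:35809246-35809545 on the minus strand and chr17:66302363-66302662 on the plus strand. The short transcripts start 29, 179 and 195 bases downstream of the RefSeq start.
PTPRK promoter: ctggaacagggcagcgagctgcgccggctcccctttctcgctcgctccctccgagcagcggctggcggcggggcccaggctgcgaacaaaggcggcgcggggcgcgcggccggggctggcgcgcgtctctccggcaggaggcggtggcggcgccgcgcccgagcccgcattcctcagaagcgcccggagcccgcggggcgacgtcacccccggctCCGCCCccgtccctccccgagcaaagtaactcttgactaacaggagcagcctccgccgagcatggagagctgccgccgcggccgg
RALGAPA1 promoter: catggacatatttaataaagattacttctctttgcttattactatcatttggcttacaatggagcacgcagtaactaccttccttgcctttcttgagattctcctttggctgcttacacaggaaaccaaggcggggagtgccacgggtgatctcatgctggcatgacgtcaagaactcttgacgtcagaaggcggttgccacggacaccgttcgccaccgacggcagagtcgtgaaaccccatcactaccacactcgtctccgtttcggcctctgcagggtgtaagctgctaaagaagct
PRKCA promoter: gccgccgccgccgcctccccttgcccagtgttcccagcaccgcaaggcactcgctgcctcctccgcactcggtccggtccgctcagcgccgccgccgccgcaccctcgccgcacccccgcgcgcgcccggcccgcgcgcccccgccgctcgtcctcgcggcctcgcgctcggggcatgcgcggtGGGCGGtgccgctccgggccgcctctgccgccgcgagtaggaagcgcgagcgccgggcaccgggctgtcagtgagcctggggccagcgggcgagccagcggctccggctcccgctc

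The last 30 bases of the short transcript that changed most under compound 2 are shown for 6 long genes. They are the annotated ends in GENCODE 29. TPM is an estimate for each listed transcript, and the ends of the RNAs in these cells were not measured. Capitals mark AATAAA or ATTAAA, the usual signals for cleavage and polyadenylation.
PTPRK-201: ctggaAATAAActcaaattgttgttttctg
SRGAP1-204: ttttccatATTAAAatgaaattaacaataa
RALGAPA1-213: tttatctcgagctgtcctcctgatgcgtat
PRKCA-204: ttgatgtgctcttctaggcttaacagtaag
WDR7-204: agttgatttatataaaagattatttcacta
SSH2-211: tcccaccaatccccaatctggtgtgaattt
The first 2 hold such a signal and the other 4 do not in these letters. PPM1H-203 and ASAP1-215, also from the 8 largest rises of the share with compound 2, are not printed and hold none in their last 40 bases. PTPRK-201 has 526 nt in 2 exons at chr6:128518928-128520570, RALGAPA1-213 has 480 nt in 2 exons at chr14:35807805-35809116, and PRKCA-204 has 519 nt in 3 exons at chr17:66302808-66340060. WDR7-204 (617 nt, 3 exons, chr18:56694647-56696495) is annotated as a retained intron about 11% into its gene, SRGAP1-204 (360 nt, 2 exons, chr12:64042794-64043627) as a retained intron 62% into its gene, and SSH2-211 (570 nt, 2 exons, chr17:29925277-29930228) as protein-coding at the start of its gene.

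TAOK2 knockdown was compared with control siRNA on gene sums, the TPM of all transcripts of a gene. Of the 909 long genes, 118 rose and 64 fell (12.98% and 7.04%; adjusted p under 0.05 by limma with Benjamini-Hochberg adjustment over all 13106 genes). The background over all genes tested ran the other way, with 7.78% called higher and 14.4% called lower, and 6.95% and 15.8% in the background class. The median log2 change was 0.06 over long genes, -0.05 over all genes and -0.07 over the background class. It was -0.09 in genes under 20000 bp, -0.07 at 20000 to 50000 bp, -0.03 at 50000 to 100000 bp, 0.01 at 100000 to 200000 bp, 0.06 at 200000 to 400000 bp and 0.07 from 400000 bp. Among the 579 whose most abundant transcript spans the limit, 75 rose and 39 fell. With each library centred on its median gene, 154 long genes were called higher and 42 lower under knockdown. These medians are small beside the changes of single genes. Here and below, counts after centring, with batch as a block or without a library are given for long genes only. The share over all genes under the same setting is not given, so these counts have no background beside them.

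The number of calls depended on single libraries. Without control siRNA of batch B, 7.04% of long genes were called higher, and without TAOK2 siRNA of batch B or C 7.26% and 8.47%. For calls lower it was 3.85% and 3.96% without control siRNA of batch A or B, and 4.07% and 4.29% without TAOK2 siRNA of batch B or C.

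**Figure D1:**
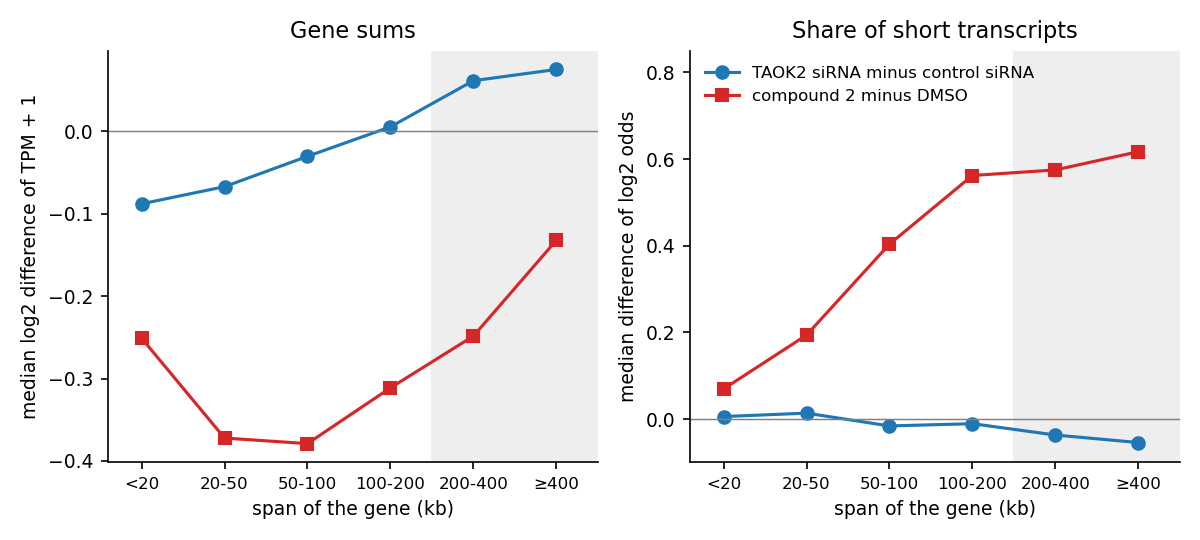
Median log2 difference of gene sums (left, log2 of TPM + 1) and of the short-transcript share (right, log2 odds) in protein-coding genes by span in kb, for TAOK2 siRNA minus control siRNA (blue circles) and compound 2 minus DMSO (red squares), with the long genes shaded. Knockdown medians of gene sums go from -0.09 in the shortest class to 0.07 in the longest, and the compound 2 median of the share lies at 0.56 to 0.62 in the 3 longest classes.

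The largest rises under knockdown included genes of membranes, matrix and cytoskeleton. OSBP2, of the oxysterol-binding protein family, stood at 26.00, 23.98 and 25.1 TPM in the controls and 54.9, 55.1 and 60.8 after knockdown, a log2 change of 1.15 ± 0.16 (standard error; adjusted p = 0.00057, limma). The knockdown libraries all lay above the control libraries. LTBP1, which binds latent TGF-beta in the extracellular matrix, went from 18.97, 17.2 and 19.1 to 30.8, 38.2 and 34.8 TPM (0.87 ± 0.09, adjusted p = 7.9e-05, limma). TP63, a p53-family transcription factor of epithelial cells, went from 6.01, 6.05 and 5.84 to 12.4, 14.5 and 12.3 TPM (1.01 ± 0.20, adjusted p = 0.0041, limma). SYT1, the calcium sensor synaptotagmin 1, went from 23.7, 24.4 and 22.5 to 40.97, 41.2 and 46.2 TPM (0.83 ± 0.11). In each of these the groups did not overlap. EPB41L4A, of the band 4.1 family, FNDC3A, IQCJ-SCHIP1, LIMCH1 (an actin and myosin regulator), FGD4 (an activator of the GTPase CDC42) and MSRB3 (a methionine sulfoxide reductase) completed the 10 largest rises, with log2 changes of 1.03, 1.01, 0.87, 0.87, 0.76 and 0.75. FGD4 lost its call without any 1 of 5 of the 6 libraries (adjusted p 0.054 to 0.094, limma).

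The largest falls under knockdown included kinases and regulators of transcription and RNA. GLIS3, a Krüppel-like zinc finger transcription factor, stood at 56.1, 52.7 and 50.1 TPM in the controls and 21.00, 19.97 and 19.6 after knockdown (-1.35 ± 0.15, adjusted p = 0.00012, limma). SRPK2, a kinase of SR splicing factors, went from 44.3, 45.3 and 40.3 to 20.1, 21.5 and 20.6 TPM (-1.03 ± 0.10, adjusted p = 3.9e-05, limma). DAPK1, the death-associated protein kinase, went from 97.3, 83.3 and 67.3 to 39.8, 30.7 and 32.2 TPM (-1.24 ± 0.23). The groups did not overlap in any of the 3. BICC1, an RNA-binding protein, went from 112, 106 and 113 to 57.04, 60.2 and 58.4 TPM (-0.90 ± 0.06, adjusted p = 2.2e-06, limma), and with compound 2 from 97.8, 98.03 and 92.2 to 48.99, 53.3 and 49.9 (-0.91 ± 0.06). The importin IPO11 fell by 0.95 and ST7 by 0.73 on the log2 scale. RBFOX3, a splicing regulator of neurons, had the lowest value of all (-1.96, adjusted p = 0.018, limma), but its controls spread over 34.2, 31.2 and 14.5 TPM and the DMSO libraries over 16.2, 6.08 and 8.53. It lost its call without control siRNA of batch A or B or TAOK2 siRNA of batch B or C (adjusted p 0.060 to 0.070, limma). MID1, a microtubule-associated ubiquitin ligase, lost its call without control siRNA of batch A or TAOK2 siRNA of batch B (0.061 and 0.064), and TNS3, a tensin of focal adhesions, without any of those 4 libraries (0.062 to 0.104).

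**Figure D2:**
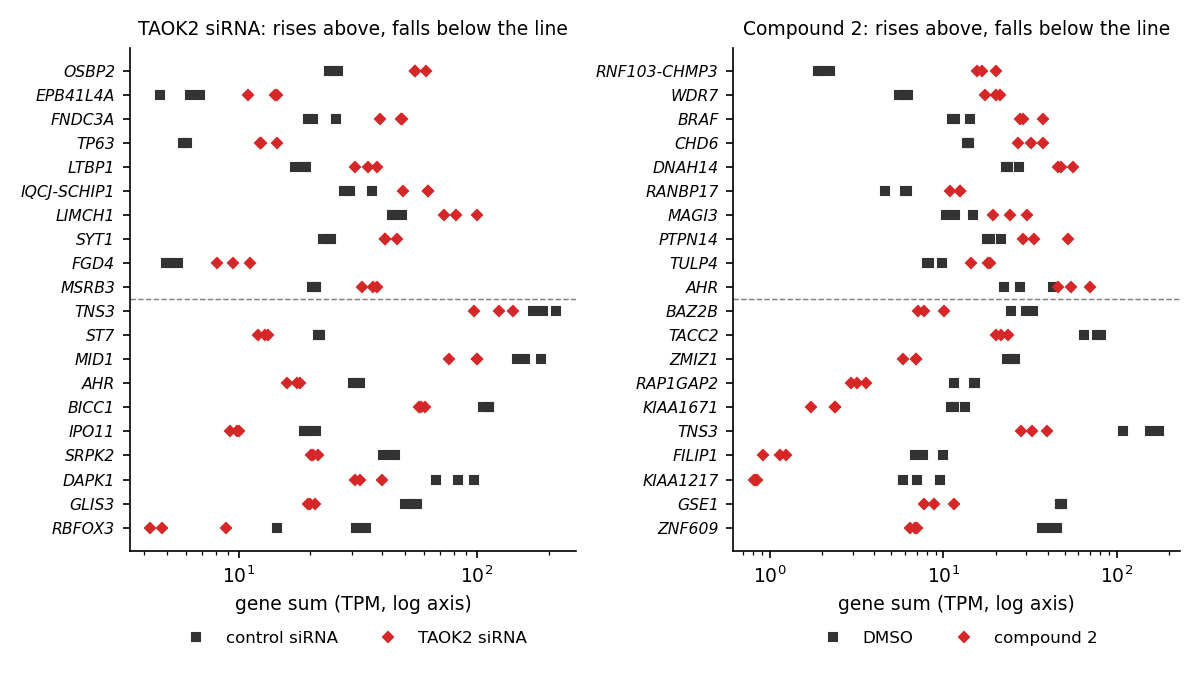
Gene sums in TPM (log axis) of the 10 largest rises and 10 largest falls among long genes for TAOK2 siRNA (left) and compound 2 (right), each point 1 library, with the control group in black squares and the treated group in red diamonds. AHR lies among the falls on the left (15.9 to 18 TPM against 30.3 to 32.2) and among the rises on the right (45.8 to 69.6 against 22.3 to 43).

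Compound 2 was compared with DMSO in the same way. On the TPM scale 103 of 909 long genes rose and 362 fell (11.3% and 39.8%), beside 12% and 51.8% of all genes and 10.7% and 56.5% of the background class. The median log2 change was -0.22 in long genes, -0.31 over all genes and -0.37 in the background class. The direction of the bulk of these calls rests on the scaling. When each library was centred on its median gene, the median over all genes moved to 0.20, 421 long genes were called higher and 120 lower (46.3% and 13.2%) and their median was 0.29, against 0.14 in the background class. The median of long genes lay above that of all genes. Centring shifts all genes of a library alike, so it cannot change that order. The medians by span were -0.25, -0.37, -0.38, -0.31, -0.25 and -0.13 from the shortest class to the longest.

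The 10 largest falls with compound 2 were larger than this shift. ZNF609, a zinc finger protein, stood at 44.99, 39.5 and 36.8 TPM with DMSO and 6.89, 7.06 and 6.43 with compound 2 (-2.41 ± 0.08, adjusted p = 1.1e-09, limma). TNS3 went from 176, 109 and 156 to 39.3, 28.1 and 32.2 TPM (-2.10 ± 0.19, adjusted p = 2.1e-06, limma). ZMIZ1, a coactivator related to the PIAS proteins, went from 23.1, 25.04 and 25.9 to 6.98, 6.91 and 5.82 TPM (-1.77 ± 0.08). No library of the compound lay near the DMSO libraries in any of the 3. GSE1, KIAA1217, FILIP1 (a filamin-binding protein), KIAA1671, RAP1GAP2 (a GTPase-activating protein of Rap1), TACC2 (a protein of centrosomes) and BAZ2B (a bromodomain protein) had log2 changes of -2.25, -2.19, -2.11, -2.04, -1.81, -1.73 and -1.70. Under knockdown RAP1GAP2 rose (0.53 ± 0.12, adjusted p = 0.0084, limma).

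A smaller set of long genes rose with compound 2. BRAF, the kinase between RAS and MEK, stood at 14.2, 11.7 and 11.2 TPM with DMSO and 37.7, 28.7 and 27.6 with compound 2 (1.27 ± 0.14, adjusted p = 6e-06, limma). CHD6, a chromatin remodeller, went from 14.03, 13.6 and 14.1 to 31.97, 37.7 and 26.8 TPM (1.14 ± 0.11). WDR7, a partner of the vacuolar proton pump, went from 6.27, 5.56 and 5.904 to 20.2, 21.2 and 17.5 TPM (1.57 ± 0.09). All compound libraries lay above all DMSO libraries for the 3 genes. AHR, the aryl hydrocarbon receptor, went from 42.99, 27.5 and 22.3 to 69.6, 54.4 and 45.8 TPM (0.88 ± 0.20, adjusted p = 0.002, limma), and the lowest compound library lay just above the highest DMSO library. Under knockdown it fell, from 30.3, 32.2 and 31.4 to 18.02, 15.9 and 17.6 TPM (-0.83 ± 0.20, adjusted p = 0.012, limma). RNF103-CHMP3 had the largest rise (2.61), but it is annotated as a readthrough of neighbouring genes whose reads it shares, so its value is uncertain. DNAH14 (a dynein heavy chain), RANBP17, MAGI3, PTPN14 (a tyrosine phosphatase) and TULP4 had log2 changes of 0.89 to 0.98.

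Of the 5 longest genes in whole cells, 4 passed in neither comparison. PDE4D, a cAMP phosphodiesterase spanning 1553082 bp, stood at 145, 136 and 128 TPM in the controls, 125, 123 and 119.9 after knockdown, 118, 110.0 and 106 with DMSO and 120.4, 115 and 105 with compound 2. MACROD2 (2057828 bp), FHIT (1502149 bp) and LSAMP (1337026 bp) lay at 0.71 to 5.70 TPM. RBMS3 (1435600 bp), an RNA-binding protein, was the exception, with compound 2 (3.17, 6.93 and 2.55 TPM with DMSO against 1.24, 3.24 and 1.49, -0.77 ± 0.29, adjusted p = 0.036, limma), and its groups overlap; the difference between the 2 comparisons was 1.07 (adjusted p = 0.045).

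The mix of transcripts within long genes changed with compound 2. The share of short transcripts (under 1000 nt) was tested as the log2 odds of short against long transcripts with 0.5 TPM added to each, in the 863 long genes that have both kinds listed. It rose in 391 and fell in 35 (45.3% and 4.06%), with a median log2 odds difference of 0.60. The background over all 10635 genes tested was 30.1% higher and 7.16% lower with a median of 0.24, and in the background class 26.5% and 7.18% with a median of 0.19. Genes of 100000 to 200000 bp stood where the long genes did, with 45.1% and 4.90% of 1407. Among genes of 200000 to 400000 bp 44.9% rose and from 400000 bp 46.4%. Of the 541 whose most abundant transcript spans the limit, 259 rose and 19 fell.

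TAOK2 knockdown gave 1 such call among 863 and none lower (0.0658% and 0.0376% of all genes, limma; 43 higher and 70 lower at an unadjusted p under 0.05). The gene was AHR, with shares of 0.289, 0 and 0.738% against 3.02, 2.24 and 1.095% (1.38 ± 0.23, adjusted p = 0.046, limma). It lost the call without any 1 of the 6 libraries (adjusted p 0.101 to 0.190, limma). The difference between the 2 treatments was tested itself: the change was lower with knockdown than with compound 2 in 306 of 863 long genes and higher in 28 (21.1% and 4.53% of all genes), with a median of -0.66.

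In raw percent, 381 of the 391 had a higher mean share with compound 2 than with DMSO and 5 a lower one, with a median difference of 16.2 points. In 350 the compound libraries all lay above the DMSO libraries. The 391 were called on these same libraries, so these counts describe the calls and add no support to them. In 5 the short transcripts were listed at 0 in both groups, so the odds moved through the 0.5 TPM added. The gene sum of the 391 was called higher in 53, lower in 190 and neither in 148. Taken apart, the sum of short transcripts lay above the DMSO libraries without overlap in 263 of 863 long genes and below in 111 (17.6% and 29.3% of all genes tested), and the sum of long transcripts above in 63 and below in 476 (8.92% and 57.5%). The median log2 changes were 0.13 and -0.40.

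Summed over all long genes, short transcripts held 31.6%, 30.1% and 30.0% of TPM with compound 2, 21.9%, 20.2% and 22.1% with DMSO, 22.3%, 21.1% and 20.7% with the control siRNA and, after knockdown, 21.5%, 21.03% and 20.8%. The compound libraries lay apart from the other 9, which overlapped. In the background class the shares were 32.0%, 30.1% and 30.9% with compound 2 and 27.9%, 26.6% and 28.1% with DMSO. MYO1E, a myosin whose TPM was mostly short transcripts in every group (86.4, 83.7 and 86.00% with DMSO), was the largest contributor, and without it the range was 28.6% to 30.0% against 18.9% to 20.3%. The median share over genes, which no single gene can set, was 23.8%, 24.1% and 21.5% with compound 2 and 13.1%, 12.5% and 13.7% with DMSO. The TPM-weighted transcript length of long genes was 2846, 2902 and 2908 nt with compound 2 and 3635, 3705 and 3579 nt with DMSO. Total TPM of the long genes was 20462 to 22350 with compound 2 and 23845 to 25185 with DMSO.

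**Figure D3:**
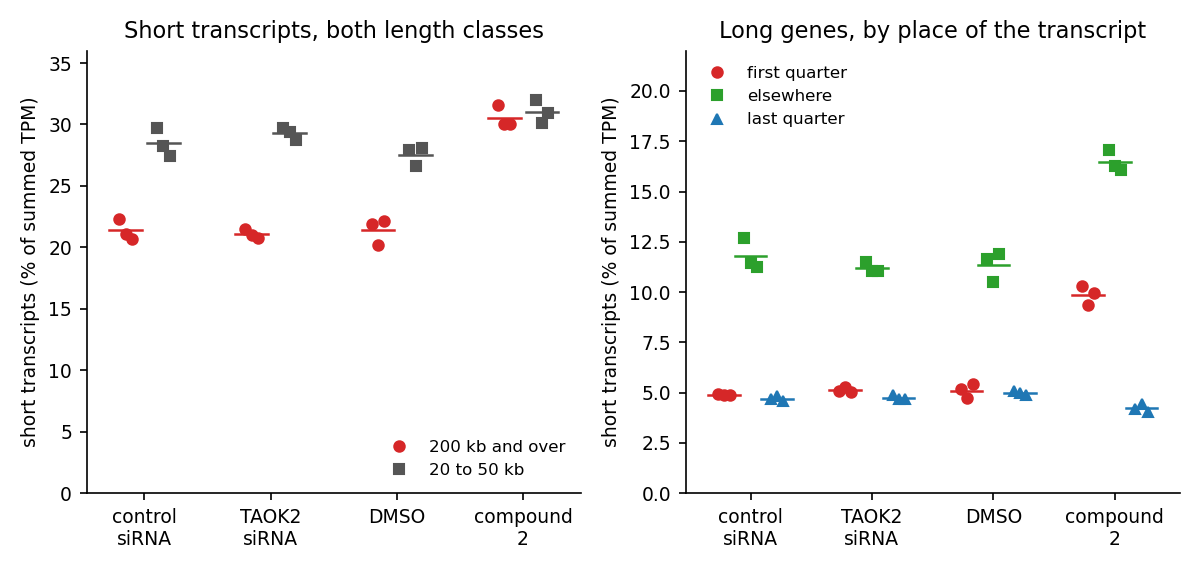
Short transcripts as percent of summed TPM in each whole-cell library (points; lines are group means), for long genes and the background class (left) and for long genes by place of the transcript (right). Compound 2 lies at 30.0% to 31.6% in long genes and the other groups at 20.2% to 22.3%, and the part in the first 25% of the gene goes from 4.72% to 5.404% with DMSO to 9.36% to 10.3%.

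Short transcripts were then split by their place in the gene. Those with both ends in the first 25% of the gene made up 10.3%, 9.36% and 9.96% of the TPM of long genes with compound 2 and 5.17%, 4.72% and 5.404% with DMSO. Those with both ends in the last 25% made up 4.21%, 4.43% and 4.02% against 5.07%, 4.97% and 4.86%. All others made up 17.1%, 16.3% and 16.1% against 11.7%, 10.5% and 11.9%. So the first and the remaining kind were higher in every compound library and the last kind lower. Without MGST1 and MRPL33, the largest contributors to the first kind, it was 6.84%, 6.55% and 6.12% against 2.57%, 2.41% and 2.68%. In the background class the first kind went from 6.87%, 6.91% and 7.14% to 8.38%, 8.30% and 8.69%.

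Single short transcripts were tested as well. Of 277 tested in the first 25% of long genes, the share within the gene rose for 126 and fell for 10 with compound 2 (45.5% and 3.61%). Over all 24258 short transcripts tested 20.0% rose and 10.2% fell, and over all 56634 single transcripts 17% and 16.1%. Of 352 in the last 25%, 55 rose and 101 fell, and of 768 others 279 rose and 57 fell. In the background class 271 of 896 in the first 25% rose and 44 fell, and 103 of 923 in the last 25% rose and 193 fell. These transcripts were kept for a mean of 0.5 TPM over all 12 libraries, so some entered through the compound libraries alone. ASAP1-215, listed at 0 elsewhere, could only rise. PTPRK-201, PRKCA-204, RALGAPA1-213, SRGAP1-204 and WDR7-204 also entered that way, which favoured a rise, so their rises are no unselected examples. Among those with that mean in the 6 siRNA libraries, 85 of 226 in the first 25% of long genes rose and 9 fell, 42 of 334 in the last 25% rose and 101 fell, and 186 of 651 others rose and 56 fell, beside 3904 and 2455 of all 22590 short transcripts kept that way. With TAOK2 knockdown none passed at either end of long genes and 2 others fell (0.0477% and 0.0459% of all passed). AATAAA or ATTAAA lay in the last 40 bases of 23.8% of the 126 that rose (30 transcripts), against 23.5% of the 277 tested. Among all listed transcripts of long genes it lay there in 13.8% of 6316 short and 48.0% of 6429 long ones.

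The 8 largest rises of the share with compound 2 included enzymes of signalling and the cytoskeleton. RALGAPA1 had 2.59, 10.03 and 4.67% of its TPM in short transcripts with DMSO and 74.8, 70.3 and 70.8% with compound 2 (4.83 ± 0.32 in log2 odds, adjusted p = 4.7e-07, limma). The siRNA controls had 7.18, 6.52 and 5.57% and the knockdown libraries 4.27, 10.7 and 5.31%, which overlap. RALGAPA1-213, whose end is printed above, went from 0.175, 0.422 and 0 TPM to 14.7, 13.6 and 11.7 TPM. The gene sum rose as well, from 16.9, 15.1 and 13.6 to 30.3, 28.7 and 25.3 TPM. PTPRK went from 5.395, 7.31 and 9.95% to 66.3, 70.3 and 58.9% (4.13 ± 0.23), and PTPRK-201 from 0.2901, 0.0738 and 0.475 to 14.9, 23.8 and 12.2 TPM. PRKCA went from 1.62, 1.36 and 1.53% to 23.5, 29.03 and 16.5% (3.53 ± 0.28), and PRKCA-204 from 0.349, 0.542 and 0.154 to 8.497, 11.96 and 5.83 TPM. In each the 3 compound libraries lay above every other whole-cell library. RALGAPA1-213, PTPRK-201 and PRKCA-204 passed the filter on single transcripts through the compound libraries alone.

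WDR7 went from 8.24, 15.02 and 7.22% to 80.4, 81.6 and 79.1% (4.33 ± 0.20, adjusted p = 4.3e-08, limma), with WDR7-204 at 0, 0.431 and 0.147 TPM with DMSO and 10.2, 10.7 and 7.48 with compound 2. SSH2, a slingshot phosphatase that acts on cofilin, went from 61.9, 62.9 and 60.8% to 95.99, 96.2 and 96.3% (3.56 ± 0.14), and SSH2-211 from 10.1, 10.3 and 7.69 to 26.8, 27.1 and 23.7 TPM. SRGAP1, a GTPase-activating protein of the Slit and Robo pathway, went from 1.28, 1.15 and 0.925% to 44.3, 24.7 and 33.1% (4.08 ± 0.34). Its transcript SRGAP1-204 was listed at 0, 0.108 and 0 TPM with DMSO and at 5.48, 3.67 and 2.91 with compound 2. ASAP1, a GTPase-activating protein of Arf, went from 1.97, 2.61 and 2.69% to 28.4, 28.1 and 25.7% (3.55 ± 0.19). ASAP1-215 (550 nt in 6 exons, chr8:130214618-130443537, annotated as a target of nonsense-mediated decay) was listed at 0 in the 9 other whole-cell libraries and at 4.55, 4.39 and 5.65 TPM with compound 2. PPM1H, a protein phosphatase, went from 8.82, 11.7 and 3.37% to 58.7, 64.3 and 65.4% (3.68 ± 0.45), but with short under 500 nt it lost its call (1.41, adjusted p = 0.071, limma). At that limit PPM1H-203 (522 nt) and the named transcripts of PTPRK, SSH2, PRKCA, WDR7 and ASAP1 all count as long. The differences of PTPRK and SSH2 were then -0.27 and -0.014. WDR7-204, SRGAP1-204 and ASAP1-215 passed the filter on single transcripts through the compound libraries alone. The named transcripts of the 8 genes thus lie at the start of some genes and well inside others.

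**Figure D4:**
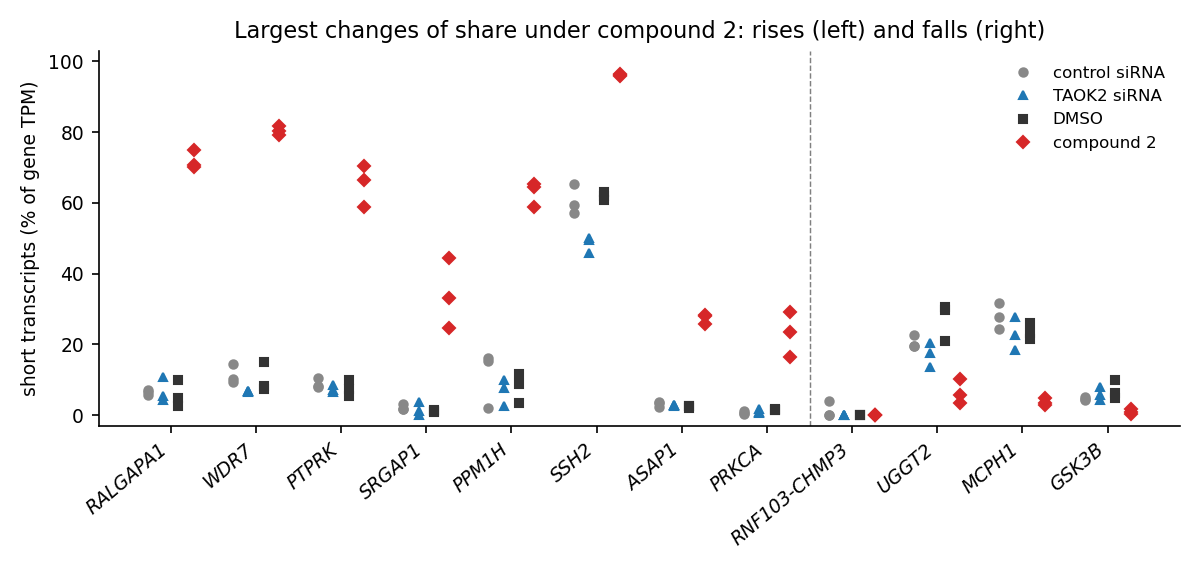
Short transcripts as percent of gene TPM in each whole-cell library for the 8 largest rises and 4 largest falls of the share under compound 2 among long genes. RALGAPA1 goes from 2.59% to 10.0% with DMSO to 70.3% to 74.8%, and RNF103-CHMP3 stays at 0% in all DMSO and compound 2 libraries.

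Falls of the share were fewer. UGGT2, an enzyme of glycoprotein folding control, went from 30.5, 29.6 and 20.8% to 5.52, 10.1 and 3.43% (-2.20 ± 0.30, adjusted p = 9.5e-05, limma), and its transcript UGGT2-210 from 3.18, 1.49 and 1.61 TPM to a listing at 0 in all 3 compound libraries. MCPH1, microcephalin, went from 23.1, 21.4 and 25.96% to 4.85, 2.78 and 3.49% (-1.82 ± 0.20). GSK3B, the kinase glycogen synthase kinase 3 beta, went from 6.25, 4.73 and 10.01% to 0.902, 1.82 and 0.324% (-1.68 ± 0.27). In all 3 the groups did not overlap. The difference turned to 0.44 for UGGT2 with short under 1500 nt and to 0.090 for MCPH1 with short under 500 nt. RNF103-CHMP3 had the lowest log odds (-2.83), but its short transcripts were listed at 0 in every DMSO and compound library, and the value comes from the 0.5 TPM added while its long transcripts rose. Of the 35 falls, 32 had a lower raw mean and 25 groups that did not overlap. These counts come from the libraries that gave the calls and add no support to them.

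The long genes were also read by role, in lists chosen with earlier results of these data known. Of 40 genes of kinase, phosphodiesterase and GTPase signalling, the share rose with compound 2 in 27 and fell in none (67.5%; median 1.19). Beside this and the counts that follow stand 45.3% higher and 4.06% lower over long genes (median 0.60) and 30.1% and 7.16% over all genes tested (median 0.24). DOCK5, an activator of RAC, went from 11.4, 11.7 and 13.4% to 50.9, 53.4 and 55.5%, and PRKCE, protein kinase C epsilon, from 46.8, 45.6 and 55.03% to 89.4, 90.1 and 87.1%. Of 28 genes of adhesion, polarity and cytoskeletal links, 16 rose and 1 fell (median 1.02). MAGI3, a scaffold of cell junctions, went from 17.2, 16.4 and 17.8% to 61.1, 58.4 and 64.8%, and PTK2, the focal adhesion kinase, from 27.5, 21.3 and 25.5% to 56.1, 55.9 and 56.00%. Of 25 transcription factors and cofactors, 15 rose and 1 fell (median 0.95). FOXP1, a forkhead factor, went from 14.1, 8.22 and 9.51% to 47.00, 30.95 and 45.96%, and NFIA, a nuclear factor I, from 2.95, 7.19 and 4.07% to 29.2, 40.1 and 41.4%. The fall was that of TRPS1, whose short transcripts were listed at 0 with DMSO and at or below 0.486% with compound 2, so that its odds fell through the 0.5 TPM added. Its gene sum went from 0.344, 1.27 and 0.388 to 8.14, 6.57 and 9.201 TPM (2.46 ± 0.23). The mean of 1 TPM that admitted the gene included the compound libraries, where it was high.

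Of 17 chromatin proteins, 10 rose and 1 fell in the share with compound 2 (median 0.97). ARID1B, a subunit of the BAF remodelling complex, went from 5.096, 3.91 and 2.597% to 38.9, 36.97 and 38.5%, and KMT2C, a histone H3 lysine methyltransferase, from 13.9, 13.6 and 16.9% to 51.1, 50.2 and 46.9%. Of 25 genes of trafficking and ubiquitin ligases, 16 rose and none fell (median 0.80). NEDD4L, a ubiquitin ligase of membrane proteins, went from 29.5, 27.6 and 25.7% to 64.2, 60.8 and 60.7%, and BIRC6, a large ubiquitin-conjugating enzyme, from 14.6, 9.92 and 11.4% to 45.3, 44.7 and 37.04%. Of 7 genes at common fragile sites, 2 rose and none fell (28.6%, near the share over all genes; median 0.19). They were NBEA, a BEACH-domain protein, which went from 1.25, 0 and 2.33% to 24.4, 22.7 and 16.5%, and RORA, a nuclear receptor, which went from 76.7, 70.5 and 63.8% to 85.2, 90.5 and 87.4%. Each is also in another of the lists, NBEA in trafficking and RORA in transcription factors. With TAOK2 knockdown no gene of these 6 lists passed in the share. Among 36 measured genes of elongation and early termination, which are no long genes, 8 rose and 3 fell in the share (median 0.18).

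In gene sums under knockdown, 12.98% of long genes and 7.78% of all genes were called higher and 7.04% and 14.4% lower, which stand beside the counts by list. Adhesion, polarity and cytoskeletal genes had 9 rises and 2 falls among 29 (31.0% and 6.90%, median 0.18, against -0.05 over all genes), such as PTPRM, a receptor phosphatase of cell contacts (37.96, 36.3 and 35.6 TPM against 48.99, 49.2 and 46.02, 0.38 ± 0.06), CTNNA1, alpha-catenin (0.29 ± 0.06), and PARD3B (0.49 ± 0.11). Trafficking and ubiquitin ligase genes had 5 rises and no fall among 25, FBXL17 (0.53), HECW2 (0.48), DENND1A (0.29) and EXOC6B (0.38) among them. Chromatin proteins had 2 rises and no fall among 17, SMARCA2, an ATPase of the BAF complex (37.6, 35.2 and 29.7 TPM against 47.8, 52.8 and 47.5), and JAZF1 (0.76). Transcription factors had 3 rises and 3 falls among 27 (11.1% each, near the shares above), with NFIA at 0.43 and KLF12 at 0.56. Signalling genes had 3 rises and 2 falls among 40, with the kinases MAP3K5 at 0.54 and STK39 at 0.44 and ARHGEF3 at -0.38. None of the 7 fragile-site genes passed.

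With compound 2 the first 5 lists had more falls than rises on the TPM scale, which the scaling can turn, and the fragile-site genes 1 of each. Over all genes 12% were called higher and 51.8% lower (median -0.31), and several lists lie close to that. Transcription factors had 4 rises and 14 falls among 27 (14.8% and 51.9%), among them MAML3, a Notch coactivator (20.4, 22.5 and 19.9 TPM with DMSO against 5.18, 7.87 and 5.21), NCOA2 (-1.06) and TEAD1 (-0.96). Signalling genes had 3 and 18 among 40, such as RPTOR, the mTORC1 subunit (-0.57), and VAV2 (-0.77). Adhesion genes had 3 and 9 among 29, with MACF1, which links microtubules to actin, at 121, 93.1 and 116 TPM with DMSO against 37.3, 37.2 and 38.3. Chromatin proteins had 2 and 9 among 17 (11.8% and 52.9%), with MLLT10 at -1.16 and EHMT1 at -0.76. Trafficking and ubiquitin ligase genes had 6 and 10 among 25, with the ubiquitin ligase FBXW7 at 0.72 and USP34 at -0.79. Of 39 factors of elongation and early termination, 10 rose and 18 fell with compound 2 (25.6% and 46.2%). CDK12 fell by 2.07 and ZC3H4 by 3.13 on the log2 scale, and CPSF6 (1.06) and CCNT2 (1.16) rose. With knockdown 0 rose and 9 fell (0% and 23.1%, beside 7.78% and 14.4% of all genes), with CSTF2 at -0.69 and SCAF8 at -0.50.

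Control siRNA and DMSO, the controls of the 2 treatments, also differed in some long genes. Of 909, 66 were higher with control siRNA and 15 lower (7.26% and 1.65%, beside 4.32% and 2.11% of all genes). With batch as a block it was 130 and 28 (14.3% and 3.08%), and with libraries centred on their median gene 50 and 22. The shares over all genes belong to the first counts and are no background for these. PAPPA, a protease of IGF-binding proteins, stood at 102, 91.4 and 93.1 TPM with the control siRNA against 46.5, 48.1 and 44.2 with DMSO (1.03 ± 0.08, adjusted p = 0.00011, limma), and FSTL4, a follistatin-like protein, at 19.8, 17.6 and 16.4 against 8.83, 4.93 and 7.52 (1.25 ± 0.17). The other 8 of the 10 named by rule (among them CCBE1, SYNE1, PLCB4, EPB41L2 and CAV2 lower and NCALD and COL21A1 higher) each lost their call without some single library (adjusted p 0.051 to 0.168, limma). Without DMSO of batch B or C, 2.97% and 3.85% were called higher, and without control siRNA of batch A or B 1.98% and 1.76%. Calls lower fell to 0.550%, 0.330% and 0.880% without DMSO of batch A, B or C and to 0.330% and 0% without control siRNA of batch A or B. In the share of short transcripts 0 of 863 passed by limma (0% higher and 0.0094% lower of all genes), with 30 higher and 43 lower at an unadjusted p under 0.05.

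In the fractionation experiment the rule found 971 genes, 275 of them over 400000 bp, with CNTNAP2 (2304996 bp), DMD (2241764 bp) and DLG2 (2172910 bp) the longest. TAOK2 after knockdown was at 3.67 and 2.99 TPM in total RNA (9.70 and 5.01 in its controls), 9.68 and 6.24 in nuclear RNA (15.6 and 9.31) and 2.41 and 0.728 in cytoplasmic RNA (7.63 and 3.37). In the main fit, which leaves batch out, knockdown gave no call among long genes by limma in total, nuclear or cytoplasmic RNA. All genes gave 2 rises in nuclear RNA (0.0145%) and 0% otherwise. At an unadjusted p under 0.05 there were 65 rises and 14 falls in total, 45 and 36 in nuclear and 26 and 40 in cytoplasmic RNA. With batch as a block 11 rose and 2 fell in total RNA (1.13% and 0.206%), 19 and 17 in nuclear RNA (1.96% and 1.75%) and 7 and 7 in cytoplasmic RNA (0.721% each). The shares over all genes given above are from the fit without the block and are no background for these counts. The share of short transcripts gave no call by limma either (0% of all genes), with 8 higher and 16 lower in total, 5 and 25 in nuclear and 42 and 11 in cytoplasmic RNA at an unadjusted p under 0.05.

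Nuclear and cytoplasmic RNA were compared within control cells. Of 971 long genes, 254 were higher in nuclear RNA and 146 in cytoplasmic RNA (26.2% and 15.04%, beside 29.8% and 18.9% of all genes and 29.6% and 19.7% of the background class), with a median log2 difference of 0.22, against 0.21 over all genes. When libraries were centred on their median gene, it was 151 and 281 (15.6% and 28.9%) with a median of -0.16, so the direction of this count rests on the scaling. Without control cytoplasmic RNA of batch 1 or nuclear RNA of batch 2, 16.0% and 14.9% were called higher, and without cytoplasmic RNA of batch 2 or nuclear RNA of batch 1, 8.03% and 8.44% lower. In knockdown cells it was 286 and 120 (29.5% and 12.4%, beside 28.6% and 16.6% of all genes), and after centring 14.1% and 23.6%. There 17.8% and 15.2% were called higher without cytoplasmic RNA of batch 1 or nuclear RNA of batch 2, and 7.42%, 5.97% and 7.31% lower without cytoplasmic RNA of batch 2 or nuclear RNA of batch 1 or 2. The difference between knockdown and control cells in this ratio gave no call by limma (0% of all genes), with 0 rises and 5 falls at an unadjusted p under 0.05.

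The largest differences between the fractions were those of nuclear RNA. RYR3, a ryanodine receptor, stood at 41.4 and 48.7 TPM in control nuclear RNA and 2.16 and 0.867 in cytoplasmic RNA (4.24 ± 0.29, adjusted p = 2.1e-05, limma). RFX2, a transcription factor of cilia genes, stood at 92.7 and 91.4 against 5.31 and 3.24 TPM (4.17 ± 0.28), and AHI1, a ciliary protein, at 133 and 194 against 9.59 and 14.9 TPM (3.64 ± 0.41). In all 3 both nuclear libraries lay above both cytoplasmic ones. After knockdown RYR3 stood at 18.6 and 23.2 TPM in nuclear and 0.458 and 0.341 in cytoplasmic RNA (3.96 ± 0.29), RFX2 at 49.9 and 43.99 against 4.04 and 1.94 TPM (3.64 ± 0.28) and AHI1 at 94.1 and 139 against 8.32 and 15.4 TPM (3.22 ± 0.41). WDR27 and LRRC7 completed the 5 largest, at 3.93 and 3.92. On the cytoplasmic side stood CAMTA1, a transcription activator, at 13.9 and 12.1 TPM in nuclear and 84.9 and 72.7 in cytoplasmic RNA (-2.51 ± 0.14, adjusted p = 1.4e-05, limma), and MRPL33, a mitochondrial ribosomal protein, at 133 and 216 against 548 and 898 TPM. UMAD1, NDUFAF2 (an assembly factor of respiratory complex I) and SLC25A26 (a mitochondrial carrier) followed at -1.95, -1.88 and -1.73. Of the longest genes, DMD, dystrophin, stood at 2.84 and 8.101 against 0.2798 and 0.477 TPM (2.10 ± 0.49, adjusted p = 0.0076, limma) and EYS at 1.98 and 3.82 against 0.532 and 0.624 TPM (1.27 ± 0.26), while CNTNAP2, DLG2 and MACROD2 did not pass. The mean of 1 TPM that admitted genes included the nuclear libraries. DMD and EYS, under 1 TPM in cytoplasmic RNA, may have entered through them, which would favour a call in this direction.

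By list, counts stand beside 29.8% higher in nuclear RNA and 18.9% lower over all genes, a direction that turns with median-centring as above. Adhesion, polarity and cytoskeletal genes had 15 higher in nuclear RNA and none in cytoplasmic RNA of 31 (48.4% and 0%), with DST, which links cytoskeletal filaments, at 35.02 and 36.1 against 8.88 and 10.5 TPM. Trafficking and ubiquitin ligase genes had 12 and 1 of 25, with VPS8, of the endosomal CORVET complex, at 38.3 and 53.3 against 10.2 and 13.4 TPM. Signalling genes had 14 and 3 of 39, chromatin proteins 9 and 3 of 18, transcription factors 2 and 2 of 27 and fragile-site genes 3 and 1 of 12.

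The share of short transcripts was mostly higher in nuclear RNA where it differed. Of 921 long genes it was higher in nuclear RNA in 201 and lower in 25 (21.8% and 2.71%, beside 30.2% and 5.03% of all genes and 32.3% and 4.04% of the background class), with medians of 0.54, 0.81 and 0.92. With batch as a block it was 271 and 44 (29.4% and 4.78%). Without cytoplasmic RNA of batch 1 or 2 or nuclear RNA of batch 2, 12.9%, 9.66% and 7.17% were called higher. In knockdown cells 98 were higher and 26 lower (10.6% and 2.82%, beside 20.9% and 4.67% of all genes), and with the block 169 and 59 (18.3% and 6.41%). Without nuclear RNA of batch 1 or 2, 6.41% and 2.82% were called higher there. The change of this difference with knockdown gave no call by limma (0% of all genes), with 2 higher and 21 lower at an unadjusted p under 0.05.

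Short transcripts at the end of the gene took a larger part in nuclear RNA, in both length classes. Those with both ends in the last 25% made up 12.1% and 12.9% of the TPM of long genes in control nuclear RNA and 4.43% and 3.47% in cytoplasmic RNA. In the background class they made up 8.62% and 8.25% against 2.41% and 2.13%. Those in the first 25% made up 5.72% and 7.79% against 11.1% and 12.98%, and without MGST1 and MRPL33 3.24% and 4.66% against 2.75% and 2.82%. The median share over genes was 20.9% and 25.3% in control nuclear, 11.7% and 11.2% in cytoplasmic and 17.2% and 17.9% in total RNA. Of 535 single short transcripts tested in the last 25% of long genes, 176 took a larger part of their gene in nuclear RNA and 15 a smaller one, beside 50 and 24 of 279 in the first 25% and 104 and 44 of 769 others. Over all 26647 short transcripts tested, 28.2% took a larger part and 6.78% a smaller one, and over all single transcripts 21.1% and 13%. In the background class 561 of 1391 in the last 25% took a larger part and 40 a smaller one (40.3% against 32.9% in long genes). The mean of 0.5 TPM that kept these transcripts included the nuclear libraries, and NF1-212 and others entered through them alone. Among those with that mean in the 4 libraries of total RNA, 109 of 378 in the last 25% of long genes took a larger part and 14 a smaller one (28.8% and 3.70%), and 399 and 31 of 997 in the background class. Over all 22311 short transcripts kept that way it was 25.9% and 7.46%, so the larger parts in long genes lay near that share.

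**Figure D5:**
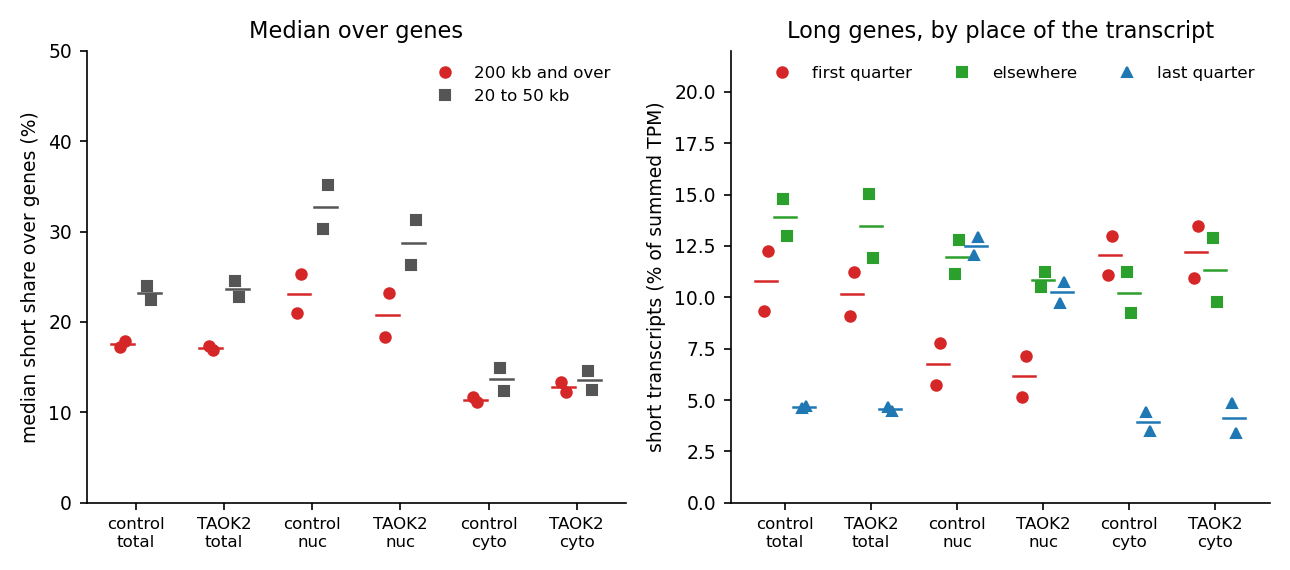
Median share of short transcripts over genes (left) and short transcripts of long genes by place in the gene as percent of summed TPM (right), in each library of the fractionation experiment (points; lines are group means of 2 libraries). In control cells the part in the last 25% of the gene is 12.1% and 12.9% in nuclear RNA and 3.47% and 4.43% in cytoplasmic RNA.

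The genes with the largest differences held such transcripts in various places. RBMS1, an RNA-binding protein, had 37.03 and 57.05% of its TPM in short transcripts in control nuclear RNA and 1.49 and 0.937% in cytoplasmic RNA (4.91 ± 0.68, adjusted p = 0.00069, limma). Its retained-intron transcript RBMS1-207 (386 nt, chr2:160275399-160277372, near the end of the gene) stood at 8.21 and 20.8 TPM against 0.0952 and 0 TPM. NF1, neurofibromin, had 31.2 and 41.9% against 5.93 and 0.372% (3.83 ± 0.66), and NF1-212 (331 nt, chr17:31380141-31382116, at its last exons) stood at 5.76 and 9.42 against 0.1795 and 0 TPM. In both genes the nuclear libraries lay above the cytoplasmic ones. SPIRE1, an actin nucleator, had 33.3 and 44.02% against 0.528 and 0.625%, and NEBL, nebulette, 46.7 and 54.5% against 4.29 and 5.73%, each with a short transcript annotated as a retained intron near the gene end. NEBL-211 has 505 nt, and with short taken as under 500 nt the log2 odds difference of NEBL was 0.0046 (adjusted p = 0.996, limma). LRRC7 also lost its call at that limit (1.27, adjusted p = 0.13, limma). RFX2 had 97.3 and 98.2% against 70.5 and 69.1% (4.22 ± 0.51) and GPATCH2 30.2 and 47.7% against 2.56 and 0% (3.93 ± 0.53), and their short transcripts RFX2-217 and GPATCH2-203 lie 43.2% to 58.8% and 10.1% to 67.9% along the gene. After knockdown RBMS1 had 34.7 and 55.8% in nuclear and 0.766 and 1.67% in cytoplasmic RNA, NF1 26.7 and 37.8% and 2.84 and 1.65%, and SPIRE1 25.7 and 36.1% and 16.3 and 6.48%, in the same order in both batches. The other direction was led by MGST1, a microsomal glutathione transferase whose TPM was nearly all short (97.4 and 97.8% in nuclear and 99.9 and 99.96% in cytoplasmic RNA), followed by CAMTA1 (98.2 and 97.6% and 99.8 and 99.7%) and ACYP2, an acylphosphatase (59.2 and 58.4% and 91.2 and 92.2%). The differences of MGST1 and CAMTA1 changed sign with short under 500 nt (3.35 and 0.20), where their short transcripts MGST1-205 (914 nt) and CAMTA1-208 (567 nt) count as long. ATXN7L1 lost its call without either cytoplasmic library or nuclear RNA of batch 1 (adjusted p 0.053 to 0.078, limma).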

How the data were processed

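Polyadenylated RNA of A549 cells was sequenced in 24 libraries, and 2 tables of 12 libraries each were used. The deposited values are TPM per transcript (188753 transcripts), for which the submitters' processing notes name kallisto and GRCh38.p14, with no version of kallisto. Each library sums to a fixed TPM total, so the depth is unknown and no counting interval is given. GENCODE 29 matched 169797 transcripts, which held 97.4% to 97.6% of TPM in whole cells and 97.0% to 98.3% in the fractions. Gene sums were tested on log2(TPM + 1), which understates the change of low genes, with limma 3.58.1 (trend and robust, statmod 1.5.0, data.table version 1.17.8, R 4.3.3), in 1 fit over the 12 libraries of each experiment, on genes averaging 1 TPM or more, and Benjamini-Hochberg adjustment over all genes. Shares of transcripts under 1000 nt were tested as log2 odds with 0.5 TPM added, and single transcripts (mean of at least 0.5 TPM) as the log2 odds against the rest of their gene. The procedure was tested on simulated data. Promoters and gene matches by symbol came from RefSeq (GRCh38.p14), and transcript ends from GENCODE 29.

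The labels give a batch for each library, which pairs samples across groups, so fits with batch as a block were made as an alternative. After group means were removed, same-batch libraries of different groups correlated at -0.302 to 0.639 in whole cells (12 of 18 pairs over 0.1, 11 of 12 libraries most like one of their own batch) and at 0.531 to 0.837 in the fractions (30 of 30 pairs, 12 of 12 libraries). Replicates correlated at 0.984 to 0.997 and 0.928 to 0.970 over genes. Named genes are members whose adjusted p was under 0.05, that averaged 5 TPM or more and that had the same sign in every batch: the 10 largest rises and falls in gene sums for each treatment, the 5 largest each way otherwise, the 8 largest rises and 4 largest falls of the share (3 and 3 for the smaller comparisons), the 5 longest genes, the genes next to the span limit, and up to 4 of each list by smallest adjusted p. Further examples within the lists were chosen after their values were seen. The genes and lists were chosen with earlier results of these data known. Other settings tried were the pseudocount, the filter, median-centring, the groups in the fit, the batch block, the span limit, the length that counts as short, the TPM added, and each library left out. A filter of single transcripts on libraries outside the contrast was added after seeing the data.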

Additional observations from a re-analysis of the deposited data

Results flagged for a closer look

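In long genes, the change from control to TAOK2 siRNA ran in opposite directions in nuclear and cytoplasmic RNA in both batches; this difference was not tested. Genes of 20000 to 50000 bp did the same in the summed share and the length, but not in the median share. The share of short transcripts in summed TPM changed by -3.57 and -4.41 points in nuclear RNA of batches 1 and 2 and by 1.93 and 0.950 points in cytoplasmic RNA, and in the background class by -3.19 and -3.996 and by 1.73 and 0.451 points. The median share over genes changed by -2.63 and -2.05 points in nuclear RNA and by 1.75 and 1.07 points in cytoplasmic RNA, and in the background class by -4.04 and -3.88 and by -0.375 and 0.139 points. The TPM-weighted transcript length changed by 87.7 and 144 nt in nuclear RNA, by -214 and -54.0 nt in cytoplasmic RNA and by 9.94 and 221 nt in total RNA, and in the background class by 24.2 and 57.4, by -79.3 and -23.1 and by 1.83 and 79.7 nt. No single long gene passed in this difference by limma (2 higher and 21 lower in the share at an unadjusted p under 0.05). Groups of 2 or 3 libraries are too small for a check of single outlying libraries.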

How the results depend on the processing

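Depth could not be read from TPM. The fractions have 2 libraries a group and the main fit leaves out their batch, so a missing call there says little. Over all settings, 839 counts and medians kept their direction and stayed within 1.5 times of the reported value, 152 moved and 3 changed sign; of the values for named genes 1112 kept their call, 80 lost it and 8 changed sign. The percentages below are of long genes called, higher and then lower, and the cause of a change was not tested unless given. Shares over all genes under the same settings are not given, so these percentages have no background beside them. Counts of the share with compound 2 moved past 1.5 times only for calls lower with a span of at least 300000 bp (2.64%). Median-centring gave 46.3% and 13.2% for compound 2 (median 0.29), 15.1% and 32.6% for knockdown minus compound 2, 4.62% lower for knockdown, 15.6% and 28.9% for nuclear minus cytoplasmic RNA in control cells (median -0.16) and 14.1% and 23.6% in knockdown cells (median -0.067). Fits on the compared groups alone gave 19.7% higher for knockdown, and 11.9% and 2.78% in gene sums and 3.37% and 0.434% in shares for nuclear minus cytoplasmic RNA in knockdown cells. Without a filter on low values, knockdown gave 8.25% and 4.40% and control siRNA minus DMSO 3.85% and 0.220%.

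With the replicate block (batch as a pair), control siRNA minus DMSO gave 14.3% and 3.08%; knockdown gave 1.13% and 0.206% in total, 1.96% and 1.75% in nuclear and 0.721% and 0.721% in cytoplasmic RNA; and shares in nuclear minus cytoplasmic RNA gave 4.78% lower in control cells and 18.3% and 6.41% in knockdown cells. The block moved no other count by over 1.5 times.

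The 1 call of the knockdown in shares (AHR) became 0% with 0.1 TPM added, on the compared groups alone, with short under 500 nt and under 3 settings chosen after seeing the data (most abundant transcript or RefSeq span of at least 200000 bp, and without genes of RefSeq span under 50000 bp), and was 0.240% from 300000 bp. The share in knockdown minus compound 2 was higher in 1.92% from 300000 bp. With short under 500 nt, nuclear minus cytoplasmic shares gave 14.2% and 5.98% in control cells and 4.93% lower in knockdown cells; with short under 1500 nt 4.25% lower in knockdown cells; with the span of the most abundant transcript 1.79% lower in control cells; and from 300000 bp 7.02% higher in knockdown cells. Log2 odds changed sign where the limit moved the main short transcript to the other class: under 500 nt to 0.090 for MCPH1, -0.27 for PTPRK and -0.014 for SSH2 with compound 2, and between nuclear and cytoplasmic RNA to 3.35 for MGST1 and 0.20 for CAMTA1 in control cells and 2.96 and 1.31 in knockdown cells. With short under 1500 nt UGGT2 changed sign to 0.44; its transcript UGGT2-210 has 428 nt and stayed short, and the cause was not tested. Keeping single short transcripts by their mean in libraries outside the contrast, also chosen after seeing the data, moved none of their 12 percentages in long genes by 1.5 times.

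With 1 library left out at a time, knockdown gave 7.04% to 9.46% higher and 3.85% to 5.61% lower, and 0% to 0% higher in shares. Control siRNA minus DMSO gave 1.76% to 7.26% and 0% to 1.87%. Nuclear minus cytoplasmic RNA gave 14.9% to 22.3% and 8.03% to 11.0% in control cells and 15.2% to 32.4% and 5.97% to 12.98% in knockdown cells, and in shares 7.17% to 16.8% and 0.977% to 1.74%, and 2.82% to 8.79% and 1.52% to 2.28%. None of the 32 named values of compound 2 lost its call; 5 of 21 did for knockdown, 8 of 10 for control siRNA minus DMSO, and 1 of 22 and 1 of 16 for nuclear minus cytoplasmic RNA in control and knockdown cells.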

Other observations

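The short transcripts of long genes carry several annotated types, and each took a larger part of the TPM of long genes with compound 2 than with DMSO. Those annotated as processed transcripts, which have no open reading frame assigned, held 9.68% to 10.3% with compound 2 and 6.55% to 6.87% with DMSO. Short transcripts annotated as protein-coding held 13.9% to 15.004% against 9.98% to 11.1%, and retained introns 3.76% to 4.43% against 2.57% to 2.99%. Transcripts under 500 nt held 5.09% to 5.37% against 3.16% to 3.36%, and those under 1500 nt 37.0% to 38.7% against 25.5% to 27.7%. The 3 compound libraries lay above the 3 DMSO libraries in each of these 5 measures. The background class did the same for short protein-coding transcripts (17.8% to 19.4% against 15.7% to 16.7%). It also did so under 500 nt (3.77% to 3.85% against 3.26% to 3.29%) and under 1500 nt (42.5% to 44.4% against 38.3% to 39.9%). Processed transcripts and retained introns overlapped there. No test was run on these measures in either class.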
